A study of Homo sapiens with 4 samples.

Results

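10 genes of the neuronal cytoskeleton were followed in 4 RNA libraries of HEK293, a human embryonic kidney cell line: the neurofilament subunits NEFL, NEFM, NEFH and INA, the microtubule proteins TUBB3, MAP2, STMN2 and DCX, and the growth cone proteins CRMP1 and GAP43. They were taken by name, as 10 of 40188 genes with a value, by a rule that holds no threshold on their levels, though with earlier results of these data known. NEFL, NEFM and STMN2 lie on chromosome 8, INA on 10, NEFH on 22, TUBB3 on 16, MAP2 on 2, CRMP1 on 4, GAP43 on 3 and DCX on X. Stable lines carried a doxycycline-inducible SRRM4, SRRM3 or MSI1 transgene or an empty vector, and all 4 lines received 1 µg/mL doxycycline for 24 h, so the empty-vector library carries the drug as well. SRRM3 and SRRM4 are proteins that promote inclusion of neural microexons, and MSI1 is an RNA-binding protein; the study's title names their control of retinal microexons. Each group is 1 polyA-selected, stranded library of a single line, and the labels do not say whether a line was 1 clone or a pool. The differences below thus come without replicates or p-values, and an effect of a transgene and a difference between lines cannot be told apart.

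Neurofilaments are the intermediate filaments of axons, built from light, medium and heavy chains together with alpha-internexin, and they set axon calibre. Microtubules of neurons contain the beta-tubulin isotype TUBB3 and are stabilised or bundled by proteins such as MAP2 in dendrites and DCX in migrating neurons, while stathmins such as STMN2 destabilise them. CRMP1 carries semaphorin signals to the cytoskeleton, and GAP43 is a membrane-bound protein of the advancing growth cone. HEK293 is of kidney origin but is known to express several neuronal intermediate filament genes.

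Levels are given as cRPKM, the authors' measure of reads scaled for depth and for a length per gene. That length did not always match the longest coding transcript, as given under the processing of the data. Total counts were 60288244 for SRRM4, 62892722 for SRRM3, 63003121 for MSI1 and 62083851 for the empty vector. Ratios are of counts scaled to these totals, with exact 95% intervals that cover counting error only. Each transgene was highest in its own library: SRRM4 was at 63.78 cRPKM there against 0.39 in the empty vector, SRRM3 at 38.53 against 0.49, and MSI1 at 62.43 against 8.38. In the other transgene libraries, SRRM3 was at 1.39 cRPKM in SRRM4 and 0.61 in MSI1. SRRM4 was at 0.18 in SRRM3 and 0.01 in MSI1, and MSI1 at 8.19 in SRRM4 and 10.56 in SRRM3. Of the 6 kidney and epithelial markers, KRT8, KRT18, CDH2 and VIM were at 48.92 cRPKM or more in every library. LHX1 was at 3.71 to 4.75 cRPKM, and PAX2 at 0.73 in SRRM4, 1.25 in SRRM3 and 1.05 in MSI1, against 0.83 in the empty vector. Of 9 neuron markers, 2 were at 1 cRPKM or more in SRRM4 and 1 in each other library. Their summed level was 5.73, 4.53 and 3.55 cRPKM in SRRM4, SRRM3 and MSI1, against 3.29 in the empty vector. Most of this was GAD1, and the single markers differed in direction. GAD1 had 801, 663 and 602 reads in SRRM4, SRRM3 and MSI1, against 581 in the empty vector. GAD2 had 60, 93 and 80, against 30, and ELAVL3 had 8, 6 and 9, against 1. SLC17A7 had 32, 26 and 61, against 27, and NEUROD1 had 2, 6 and 0, against 0. SNAP25 had 31 and 23 reads in SRRM4 and SRRM3, against 1 in MSI1 and 2 in the empty vector. SYT1 had 50, 25 and 25 reads in SRRM4, SRRM3 and MSI1, against 72 in the empty vector. ELAVL4 had 0, 4 and 6, against 7, and RBFOX3 had 11, 9 and 20, against 12. The part of neuron markers in the results was not tested. Summed levels over the 4 libraries were 2.08 to 2.48 cRPKM for 5 glial markers, mostly OLIG2 with SOX10 at 0 reads, 3.61 to 4.6 for 5 fibroblast markers, mostly COL1A1, and 0.10 to 0.54 for 4 blood markers.

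INA and CRMP1 met the 2-fold rule of size in SRRM3. Their RefSeq promoters (GRCh38.p14, 250 bases before the start site and 50 after it, gene strand) are shown for that reason. Among the members with a mean of at least 1 cRPKM, these differed most between libraries. Capitals mark GGACAG, a word within the RE1 element that the neuronal silencer REST binds, read on either strand.
INA, chr10:103276888-103277187, plus strand: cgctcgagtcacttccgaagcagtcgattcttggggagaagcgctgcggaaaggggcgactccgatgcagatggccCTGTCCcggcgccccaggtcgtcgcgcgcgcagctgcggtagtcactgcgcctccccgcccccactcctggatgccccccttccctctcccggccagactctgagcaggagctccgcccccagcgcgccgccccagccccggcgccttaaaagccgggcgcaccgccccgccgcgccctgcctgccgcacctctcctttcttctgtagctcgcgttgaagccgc
CRMP1, chr4:5893037-5893336, minus strand: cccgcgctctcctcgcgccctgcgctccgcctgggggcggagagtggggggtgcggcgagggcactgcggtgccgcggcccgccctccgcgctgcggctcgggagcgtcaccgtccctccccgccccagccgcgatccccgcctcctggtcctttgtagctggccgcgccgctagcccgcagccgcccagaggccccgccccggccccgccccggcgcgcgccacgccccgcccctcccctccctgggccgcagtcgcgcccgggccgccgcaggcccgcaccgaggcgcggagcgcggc
The INA window holds GGACAG once, on the opposite strand and 174 bases before the start site. The CRMP1 window holds none. Among the other 3 CRMP1 start sites the word occurs before 1, at a distance of 129 bases. The RefSeq start site of the window shown lies 28 bases from that of the transcript CRMP1-201 for CRMP1, and 25 bases from that of INA-201 for INA. GGACAG was found on either strand in 20.5% of 35116 promoters of this length. The longer word TCAGCAC, another part of RE1, was found in 4.52% of them. TCAGCAC was in none of the promoters of the 6 genes that had an entry (INA, MAP2, GAP43, TUBB3, CRMP1 and DCX). Among these genes GGACAG also lay 170 bases before a start site of TUBB3 and 97 bases before that of GAP43. Neither gene met the 2-fold rule. MAP2 and DCX had no GGACAG. The words describe these windows and no binding was measured.

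At baseline 7 of the 10 genes were on, defined as at least 1 cRPKM in the empty vector. NEFL was far the highest at 45.91 cRPKM, above 90.6% of 18828 protein-coding genes. INA at 12.61, TUBB3 at 12.01 and NEFM at 11.32 followed, above 69.8%, 68.7% and 67.5% of these genes. NEFH at 2.63, MAP2 at 1.93 and CRMP1 at 1.79 made up a low tier. GAP43 was weak at 0.77 cRPKM, with 78 reads, and STMN2 was represented by 1 read. DCX had no read in any of the 4 libraries, a state that 1906 protein-coding genes shared. With 0 reads, the approximate upper 95% limit from counting error was 0.0498 CPM in SRRM4, the shallowest library, and 0.0483 CPM in the empty vector. The order within these tiers changed from library to library. The ranges over the 4 libraries of INA, TUBB3 and NEFM overlapped, as did those of NEFH, MAP2 and CRMP1, while NEFL stood above all the others in each library.

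**Figure D1:**
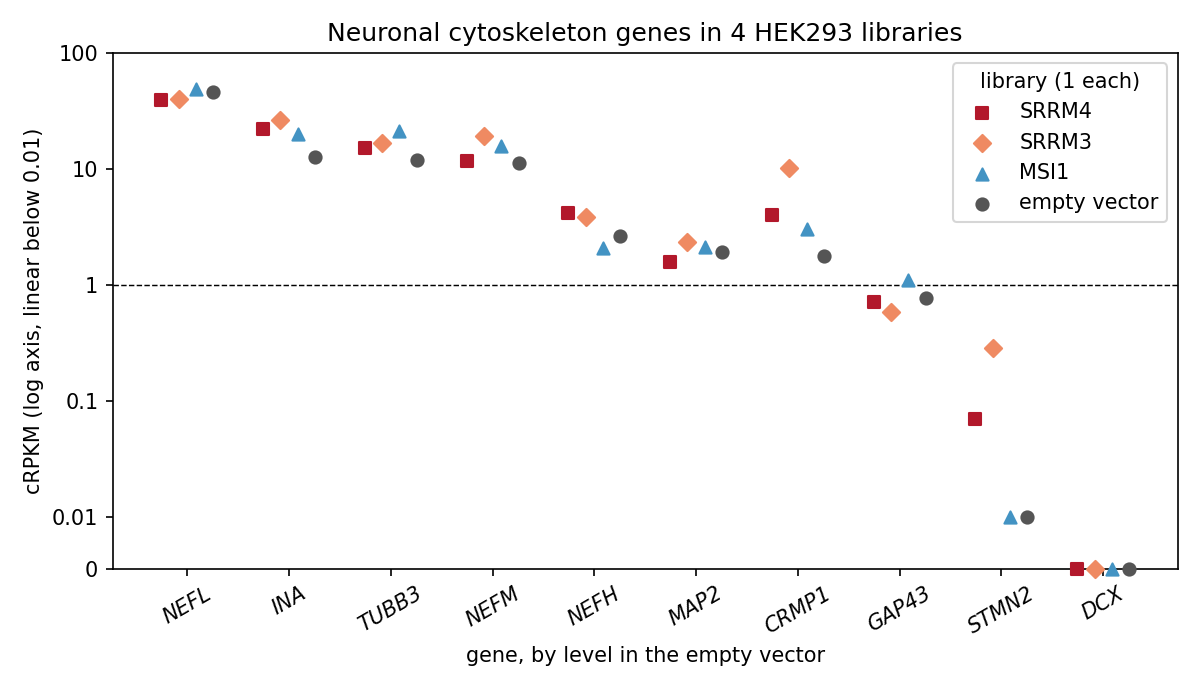
Level of each gene in cRPKM (log axis, linear below 0.01) in the 4 libraries, 1 point per library, genes in the order of their empty-vector level; the dashed line is 1 cRPKM. NEFL lies between 39.0 and 49.16 in all 4, CRMP1 spreads from 1.79 to 10.15, and DCX is at 0 throughout.

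A gene was counted as different if log2 of the ratio, after adding 0.5 cRPKM to both values, was 1 or more in either direction, among genes with a mean of at least 1 cRPKM over the 4 libraries. The 7 genes that were on passed this filter, each also by its empty-vector level alone, and GAP43, STMN2 and DCX did not. By the rule 2 of the 7 differed in SRRM3, both higher, against 0.882% of the 12705 genes tested. In SRRM4 0 of 7 differed, against 0.771%, and in MSI1 0 of 7, against 0.669%. Between SRRM4 and SRRM3 1 of 7 differed, CRMP1, which was lower in SRRM4, against 0.52% of 12704 genes. The median log2 fold of the 7 was 0.32 in SRRM4, 0.47 in SRRM3 and 0.46 in MSI1, beside medians of -0.0035, 0.0029 and 0.016 over all genes tested. The comparisons with the empty vector share that library.

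NEFL, the light chain and core subunit of the filament, was at 39.0 cRPKM in SRRM4, 40.49 in SRRM3 and 49.16 in MSI1, against 45.91 in the empty vector. Both SRRM libraries were the low ones. The ratio to the empty vector was 0.85 (0.827 to 0.873) for SRRM4, 0.882 (0.859 to 0.906) for SRRM3 and 1.07 (1.04 to 1.10) for MSI1. These differences exceeded counting error but were small beside the 2-fold rule. In bulk RNA, a change in the number of cells with a transcript and a change per cell cannot be told apart.

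INA, alpha-internexin, which co-assembles with the other subunits and is made early in neuronal development (ENSG00000148798, GRCh38 chromosome 10, 103277163 to 103290351, plus strand), was higher in each transgene library. It was at 22.01 cRPKM in SRRM4, 26.42 in SRRM3 and 20.24 in MSI1, against 12.61 in the empty vector. All 3 transgene libraries were above the empty vector, with ratios of 1.74 (1.66 to 1.83), 2.09 (2.0 to 2.20) and 1.60 (1.53 to 1.69). In SRRM3 the log2 fold was 1.04, just past the rule, and with a pseudocount of 2 it was not. INA was lower in SRRM4 than in SRRM3, with a ratio of 0.833 (0.80 to 0.867).

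NEFM, the medium chain, was at 11.84 cRPKM in SRRM4, 19.44 in SRRM3 and 15.73 in MSI1, against 11.32 in the empty vector. SRRM3 was the high library, at 1.72 times the empty vector (1.64 to 1.80), and MSI1 was at 1.39 (1.32 to 1.46). For SRRM4 the ratio of 1.05 had an interval that included 1 (0.991 to 1.10). SRRM4 against SRRM3 gave 0.609 (0.581 to 0.639). An antisense gene on the other strand, AF106564.1, shares 1706 of the 4381 annotated exon bases of NEFM; it had 119, 196 and 143 reads in SRRM4, SRRM3 and MSI1, against 103 in the empty vector, while NEFM had 2738, 4690, 3801 and 2696. The sources used here do not say whether the counting used strand, so reads of the pair cannot be told apart. The same holds for NEFL and its antisense gene AC107373.2, whose 490 exon bases all lie within NEFL exons. AC107373.2 had 49, 53 and 60 reads in SRRM4, SRRM3 and MSI1, against 36 in the empty vector. NEFL had 9482, 10271 and 12492, against 11494.

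NEFH, the heavy chain of mature axons, was at 4.17 cRPKM in SRRM4, 3.85 in SRRM3 and 2.08 in MSI1, against 2.63 in the empty vector. Here both SRRM libraries were the high ones and MSI1 was the low one. The ratios were 1.58 (1.42 to 1.76), 1.46 (1.31 to 1.63) and 0.792 (0.697 to 0.898). SRRM4 and SRRM3 did not differ beyond counting error for this gene, with a ratio of 1.08 (0.981 to 1.19).

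The make-up of the neurofilament transcripts differed between libraries. Summed over the 4 subunits the level was 77.02 cRPKM in SRRM4, 90.20 in SRRM3 and 87.21 in MSI1, against 72.47 in the empty vector. NEFL made up 50.6%, 44.9% and 56.4% of it in SRRM4, SRRM3 and MSI1, against 63.4% in the empty vector. INA made up 28.6%, 29.3% and 23.2%, against 17.4%. NEFH was the smallest part in each library, at 5.41%, 4.27% and 2.39%, against 3.63% in the empty vector. The level of INA per NEFL was 0.564 in SRRM4, 0.653 in SRRM3 and 0.412 in MSI1, against 0.275 in the empty vector. Of 8 intermediate filament genes in the wider list 6 passed the filter, and VIM, the general filament of cultured cells, was the highest at 973.50 cRPKM in the empty vector.

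**Figure D2:**
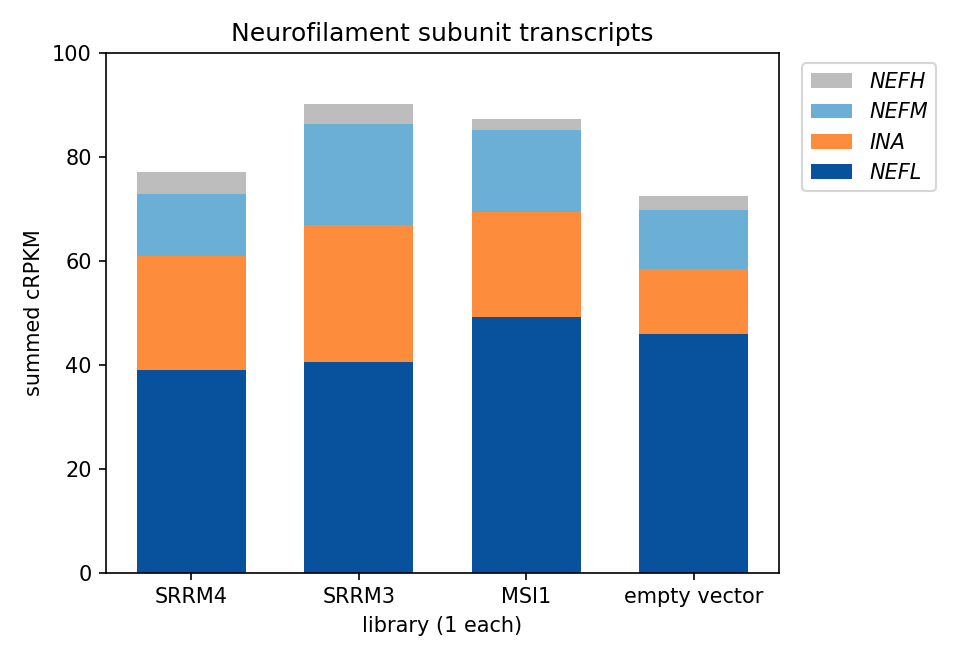
Summed cRPKM of the 4 neurofilament subunit genes in each library (1 library per bar), stacked by gene. NEFL is the lowest block and is smaller in SRRM4 and SRRM3 than in the empty vector, while the INA block is wider in all 3 transgene libraries (20.24 to 26.42, against 12.61 in the empty vector).

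CRMP1, a collapsin response mediator protein of the semaphorin pathway, varied most among the genes that were on. It was at 3.99 cRPKM in SRRM4, 10.15 in SRRM3 and 3.03 in MSI1, against 1.79 in the empty vector, from 745, 1977, 592 and 344 reads. SRRM3 was the high library, and all 3 transgene libraries were above the empty vector. The ratios were 2.23 (1.96 to 2.54) for SRRM4, 5.67 (5.06 to 6.38) for SRRM3 and 1.70 (1.48 to 1.94) for MSI1. In SRRM4 the log2 fold of 0.97 fell just short of the rule, which the gene met with a pseudocount of 0.1 and with TMM-scaled CPM. SRRM4 against SRRM3 gave 0.393 (0.361 to 0.428).

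CRMP1 (ENSG00000072832, GRCh38 chromosome 4, 5748084 to 5893058, minus strand) overlaps EVC, a gene of the cilium base on the other strand, by 159 of its 5823 annotated exon bases. EVC had 1297, 1673 and 1339 reads in SRRM4, SRRM3 and MSI1, against 1484 in the empty vector, and was also highest in SRRM3. Strand use in the counting is unknown for this pair too, so reads in the shared bases cannot be told apart. No 50-base window of CRMP1-201 occurs in an annotated transcript of another gene. CRMP1 had the largest folds of its family: the other 4 members, DPYSL2, DPYSL3, DPYSL4 and DPYSL5, had log2 folds over the empty vector no larger than that of DPYSL4, at 0.48 in SRRM4, 0.73 in SRRM3 and 0.22 in MSI1. CRMP1 made up 4.43%, 10.4% and 3.62% of the summed family level in SRRM4, SRRM3 and MSI1, against 2.16% in the empty vector, and DPYSL3 was the highest member at 34.50 cRPKM there.

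STMN2, a stathmin of growing axons and a long-known target of REST, had 9 reads in SRRM4, 40 in SRRM3 and 1 in MSI1, against 1 in the empty vector. In cRPKM these are 0.07, 0.29, 0.01 and 0.01, so SRRM3 was the high library and the gene stayed far under 1 cRPKM in each. SRRM3 was at 39.5 times the empty vector, with a counting interval of 6.69 to 1598 that a single read sets, and SRRM4 at 9.27 (1.28 to 406). SRRM4 against SRRM3, which does not rest on that read, gave 0.235 (0.10 to 0.491). The other stathmins differ in level by orders of magnitude. STMN1, the general isoform, was at 369.85 cRPKM in the empty vector. STMN3 was at 35.14 in SRRM4, 29.88 in SRRM3 and 14.56 in MSI1, against 20.62 in the empty vector, the same order of libraries as NEFH.

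TUBB3, the beta-tubulin of neurons, was at 15.14 cRPKM in SRRM4, 16.85 in SRRM3 and 21.20 in MSI1, against 12.01 in the empty vector. MSI1 was the high library and the empty vector the low one, with ratios to it of 1.26 (1.15 to 1.38), 1.40 (1.29 to 1.53) and 1.77 (1.63 to 1.92). TUBB3 is a minor isotype in these cells, at 0.843%, 0.856% and 1.18% of the summed beta-tubulin cRPKM in SRRM4, SRRM3 and MSI1, against 0.656% in the empty vector. TUBB alone was at 1182.32 cRPKM in the empty vector. Tubulin genes are similar in sequence: 7.93% of the 50-base windows of the longest TUBB3 transcript occur in transcripts of other genes, and 79.6% when the annotated read-through gene AC092143.1 at the same locus is counted, so the split of reads is uncertain. No count of AC092143.1 was among the values used, so a split with that gene cannot be seen.

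In the wider tubulin lists, 7 of 8 beta-tubulins past the filter were above the empty vector in MSI1 and likewise 7 of 8 in SRRM3, where 53.4% and 50.4% of all 12705 genes were higher. Their median log2 fold was 0.43 in MSI1. TUBB, TUBB4A and TUBB4B were highest in SRRM3, at 1266.65, 4.96 and 471.33 cRPKM. In MSI1 4 of 4 alpha-tubulins were higher, with a median log2 fold of 0.34, and TUBA4A is among them. No tubulin met the 2-fold rule. TUBB2A had a log2 fold of 0.46, and TUBA4A, which passed the filter only through its MSI1 level, had 0.90 (1.94 cRPKM in MSI1 against 0.81 in the empty vector). In SRRM4 and SRRM3 the beta-tubulin medians were 0.011 and 0.14, and the alpha-tubulin medians -0.005 and 0.033. TUBA1B was the highest alpha-tubulin, at 947.60 cRPKM in the empty vector.

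MAP2, the dendritic microtubule protein, was at 1.59 cRPKM in SRRM4, 2.34 in SRRM3 and 2.12 in MSI1, against 1.93 in the empty vector. The SRRM libraries lay on opposite sides of the empty vector, with ratios of 0.822 (0.753 to 0.897) for SRRM4 and 1.21 (1.12 to 1.31) for SRRM3. The MSI1 ratio was 1.10 (1.01 to 1.19). Directly, SRRM4 against SRRM3 gave 0.68 (0.625 to 0.739). Of the list of 14 microtubule-associated proteins, 13 passed the filter and none met the 2-fold rule in any comparison. In that list 6 were higher in SRRM4, 11 in SRRM3 and 10 in MSI1, where 48.5%, 50.4% and 53.4% of all genes tested were. MAPT, which encodes tau, had the largest fold among them, log2 0.80 in MSI1 (6.56 cRPKM against 3.55 in the empty vector), and MAP4 had the highest level, 30.06 cRPKM in the empty vector. MAP1A had log2 folds of 0.24 in SRRM4, 0.43 in SRRM3 and -0.23 in MSI1. The DCX relatives DCLK1 and DCLK2 were on, at 2.55 and 2.17 cRPKM in the empty vector, where DCX itself had no read.

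GAP43 was at 0.72 cRPKM in SRRM4, 0.59 in SRRM3 and 1.10 in MSI1, against 0.77 in the empty vector. MSI1 was the high library, with a ratio of 1.44 (1.07 to 1.95), and the intervals for SRRM4 (0.937, 0.67 to 1.31) and SRRM3 (0.772, 0.543 to 1.09) included 1. BASP1, another membrane protein of growth cones, was at 81.69 cRPKM in MSI1 and at 106.41 in the empty vector. CFL1, the actin-severing protein cofilin, was the highest of the growth cone list at 341.95 cRPKM in the empty vector.

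Among 19 growth cone genes 15 passed the filter. L1CAM, an axonal adhesion molecule, was at 1.86 cRPKM in SRRM4, 2.74 in SRRM3 and 1.37 in MSI1, against 0.69 in the empty vector, and passed the filter through the transgene libraries. Its log2 fold met the rule in SRRM3 (1.45) and was 0.99 in SRRM4 and 0.65 in MSI1. The order of the libraries was that of CRMP1. PLPPR3, a membrane protein of the lipid phosphatase-related family, was the only other gene of the lists to meet the rule, in SRRM4 against SRRM3, at 0.69 against 2.11 cRPKM (log2 fold -1.13). It passed the filter only through its SRRM3 level. In MSI1 12 of the 15 growth cone genes were below the empty vector, with a median log2 fold of -0.072, where 53.4% of all genes tested were above it.

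Across all 9 family lists, 68 genes outside the 10 passed the filter. By the 2-fold rule 0 of them differed in SRRM4, 1 in SRRM3 and 0 in MSI1, and 1 between SRRM4 and SRRM3, near the shares of 0.771%, 0.882%, 0.669% and 0.52% over all genes tested. Their median log2 folds were 0.00 in SRRM4, 0.075 in SRRM3 and 0.049 in MSI1. Axonal motors (16 genes, highest KIF5B at 80.59 cRPKM in the empty vector) had medians of -0.001, -0.021 and 0.012. The 6 spectrins and ankyrins past the filter had medians of 0.12, 0.036 and 0.054, with ANK1, which passed only through its SRRM3 level, the largest at 0.77 in SRRM3, and SPTBN1 the highest at 55.24 cRPKM in the empty vector.

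**Figure D3:**
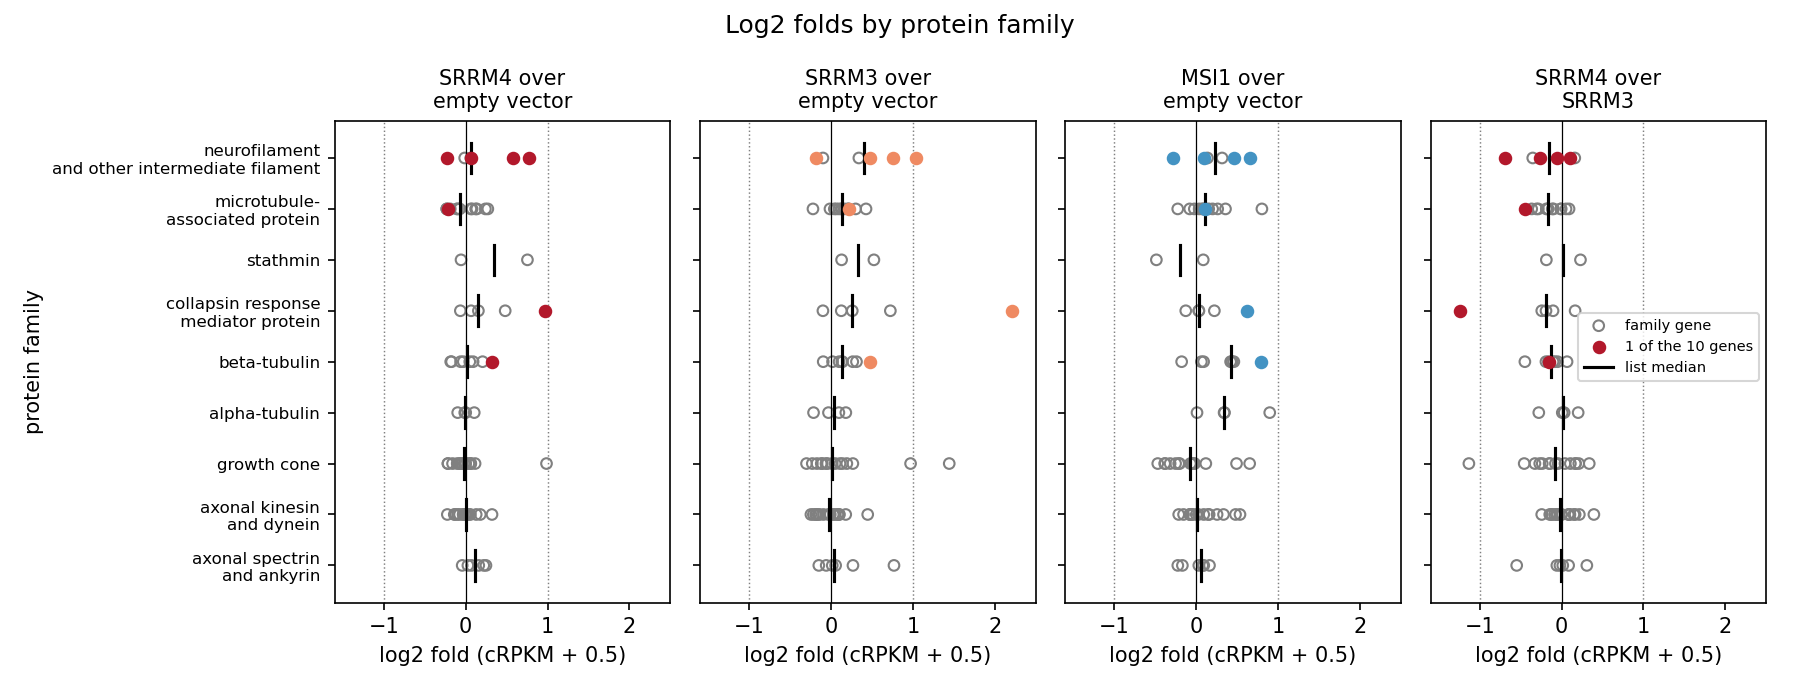
Log2 fold (cRPKM + 0.5) of every gene past the filter in 9 protein family lists, for 4 comparisons of 1 library each; filled points are members of the 10, open points other family genes, black ticks list medians, dotted lines the 2-fold rule. CRMP1 at 2.22 in SRRM3 is the farthest point, and the tubulin medians of 0.43 and 0.34 are highest in MSI1.

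The counting intervals excluded 1 for 6 of the 7 genes in SRRM4, 7 in SRRM3, 7 in MSI1 and 6 between SRRM4 and SRRM3, where 48.2%, 57.7%, 59.9% and 57.6% of all genes tested had such intervals. Both SRRM libraries were above both others for 3 of the 7, NEFH, INA and CRMP1, against 15.5% of 12704 genes. Both were below both others for 1, NEFL, against 18.9%. All 3 transgene libraries were above the empty vector for 4 of the 7, NEFM, INA, TUBB3 and CRMP1, against 21.3% of 12703 genes, and below it for 0, against 18.5%.

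**Figure D4:**
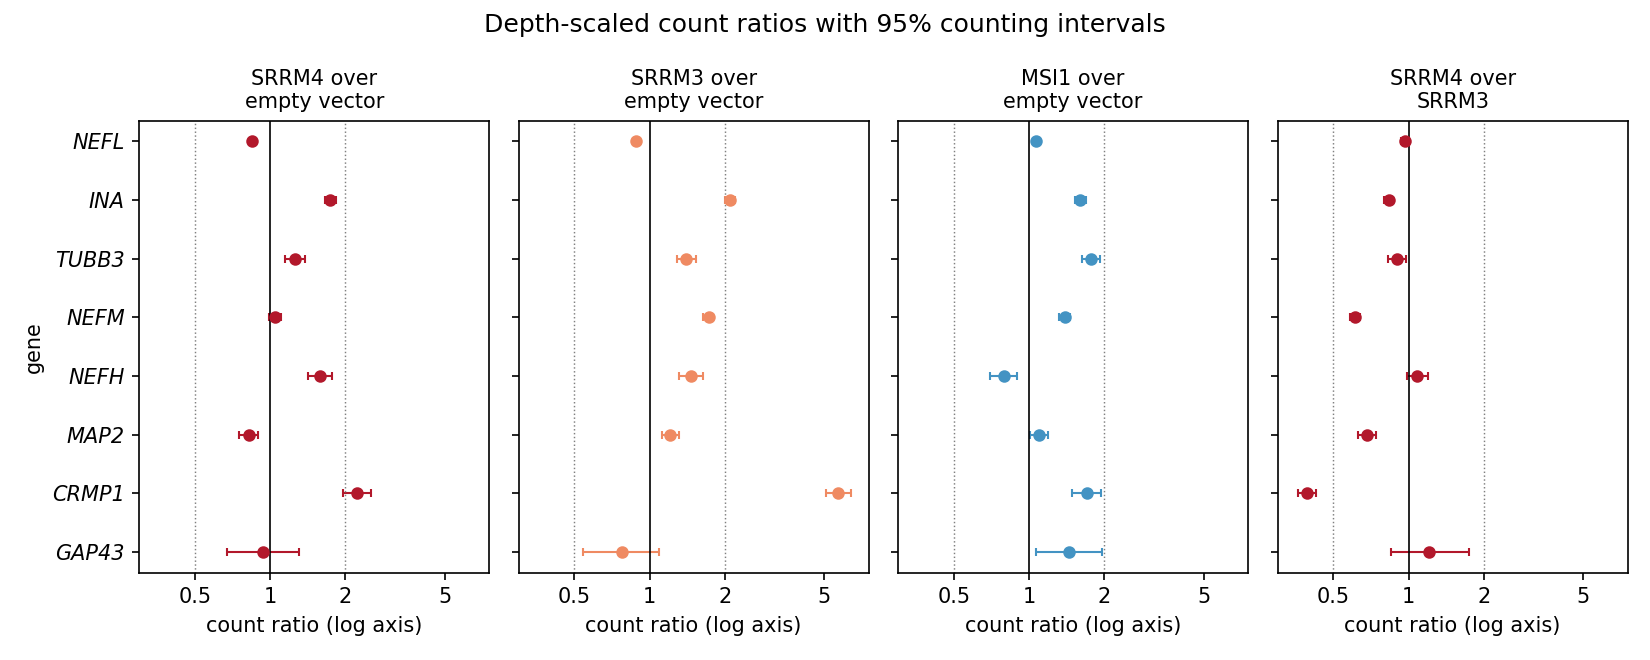
Ratio of depth-scaled counts (log axis) with 95% counting intervals for 8 of the genes in 4 comparisons of 1 library each; STMN2, with 1 read in the empty vector, and DCX, with none, are left out, and dotted lines mark ratios of 0.5 and 2. CRMP1 in SRRM3 lies at 5.67, INA is above 1 in the 3 comparisons with the empty vector, and NEFL is below 1 in both SRRM libraries.

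Of all 11612 protein-coding genes past the filter, those nearest to CRMP1 in profile over the 4 libraries (Euclidean distance of centred log2 values) were CDK5R2 at 0.426, BEX1 at 0.583 and KIAA0408 at 0.659. CDK5R2, an activator of the kinase CDK5, was at 1.89 cRPKM in SRRM4, 3.38 in SRRM3 and 0.84 in MSI1, against 0.49 in the empty vector. BEX1 was at 74.64, 109.34 and 39.43, against 34.62. CDK5R2 passed the filter through its SRRM4 and SRRM3 levels. KIAA0408, at 0.66 cRPKM in the empty vector, passed it through the transgene libraries. The genes nearest to INA were MGAT5B at 0.138, CAMK2N2 at 0.159 and LRRC37A2 at 0.161. MGAT5B was at 2.65, 3.15 and 2.14 cRPKM, against 1.40 in the empty vector. LRRC37A2, at 0.57 cRPKM in the empty vector, passed the filter through the transgene libraries. Likeness over 4 libraries describes these values only.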

How the data were processed

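Each of the 4 libraries has a deposited cRPKM value (RPKM in a corrected form) beside the deposited whole-number count of reads, per Ensembl gene. The build is GRCh38 per the submitters' processing notes; the sources used here name no aligner, counting program, annotation or strand setting. Over 3727 well-covered genes, count per cRPKM followed the library totals within 0.047%. The gene length implied by the pair matched, within 1 base, the number of 50-base windows of the longest coding transcript for 4 of 8 genes with a value (NEFL, INA, MAP2 and CRMP1); for TUBB3 it was 1234 against 1929 windows. Of 41614 genes listed, 1426 lack a value; 39633 of the other 40188 matched a symbol. Coordinates, gene types and transcripts are from GENCODE 29, promoters from RefSeq (GRCh38.p14).

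Fold changes are log2 of cRPKM + 0.5, which understates low genes; 12706 genes had a mean of at least 1 cRPKM, and the induced genes of a comparison were left out. Intervals are exact conditional (Clopper-Pearson). A count of 3 or fewer was taken as not detected. Reads are not independent molecules, so intervals and floors cover counting error only. The members and lists were chosen with earlier results of these data known. Named genes are the 10 members, the list genes past the fold rule or with the largest folds and highest levels, and the 3 nearest profiles of each member that spans 2-fold. The procedure was tested on simulated counts. TMM factors came from edgeR 4.0.16 in R 4.3.3, intervals from scipy 1.17.1 in Python 3.11.15, and plots from matplotlib 3.10.9.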

Additional observations from a re-analysis of the deposited data

How the results depend on the processing

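The log2 folds of the 9 genes with reads, leaving out STMN2 in MSI1 with 1 read in either library, kept their sign under pseudocounts of 0.1 and 2 and with CPM scaled by TMM factors. The number of the 10 genes past the 2-fold rule changed in 5 settings. In SRRM4 over the empty vector it was 1 (CRMP1) instead of 0 with a pseudocount of 0.1, and likewise 1 (CRMP1) with TMM-scaled CPM. In SRRM3 over the empty vector it was 1 instead of 2 with a pseudocount of 2 (CRMP1) and with a mean of at least 5 cRPKM (INA), where CRMP1 is not tested. For the same reason it was 0 instead of 1 in SRRM4 over SRRM3 with that filter.

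The number of all tested genes past the rule moved more. With a pseudocount of 2, no filter, a mean of at least 5 cRPKM, TMM-scaled CPM and the added interval, it was 43, 238, 15, 52 and 53 in SRRM4 over the empty vector (98 as reported), 50, 277, 22, 73 and 66 in SRRM3 (112), 33, 243, 19, 50 and 45 in MSI1 (85), and 28, 216, 14, 25 and 29 in SRRM4 over SRRM3 (66). With a pseudocount of 0.1 it was 130 in MSI1. With TMM-scaled CPM the split was 49 higher and 3 lower in SRRM4 (70 and 28 as reported) and 58 and 15 in SRRM3 (74 and 38). The cause was not tested.

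From raw counts, not per length, the TUBB3 share of beta-tubulin was 0.509% in SRRM4, 0.512% in SRRM3 and 0.741% in MSI1, against 0.392% in the empty vector, in the same order of libraries. No paired analysis was possible because each group has 1 library, and no library could be left out. Depth limits STMN2, GAP43 and DCX.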

Other observations

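NFASC and SPTBN4, genes of the axon initial segment, lay under the filter and were picked after their values were seen. ANK3, the ankyrin of the same structure, passed it at 2.18 cRPKM in SRRM4, 2.29 in SRRM3 and 1.86 in MSI1, against 2.26 in the empty vector, and had log2 folds of -0.04, 0.02 and -0.23. NFASC, a neurofascin adhesion protein, had 136 reads in SRRM4, 237 in SRRM3 and 86 in MSI1, against 62 in the empty vector, with ratios of 2.26 (1.66 to 3.10), 3.77 (2.84 to 5.08) and 1.37 (0.975 to 1.93). SPTBN4, the beta-IV spectrin of the same structure, had 375, 432 and 248 reads, against 182, with ratios of 2.12 (1.77 to 2.55), 2.34 (1.97 to 2.80) and 1.34 (1.10 to 1.63). NFASC and SPTBN4 were highest in SRRM3 and lowest in the empty vector, the order of libraries seen for CRMP1 and L1CAM, at levels of 0.80 cRPKM or less.

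STMN4 and PRPH, other low genes of the lists, were also picked after their values were seen, and MSI1 was the high library for both. Low genes of the lists did not share this in general. GFAP had 21 reads in the empty vector and 17 in MSI1, and TUBA8 had 114 in SRRM3 and 110 in MSI1. STMN4, a stathmin, had 42 reads in MSI1 and 14 in the empty vector. The ratio was 2.96 (1.58 to 5.86), and the SRRM4 and SRRM3 intervals included 1. PRPH, the intermediate filament protein peripherin, had 150 reads against 84, a ratio of 1.76 (1.34 to 2.33). Neither reached 1 cRPKM in any library.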
